A study of Homo sapiens with 9 samples.

Results

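STK11 encodes the serine/threonine kinase LKB1, and its transcript level was followed over 9 RNA sequencing libraries of the human glioblastoma line U-87. The gene is 1 of 35002 gene symbols of the deposited count table and 1 of the 609 features (genes, or transcripts without a gene symbol) that had a mean of at least 10 counts per library and could be compared. It was chosen because earlier work on the same table had shown lower counts in combination treatments than with single agents, so its levels and differences are described here without p-values. Its counts were the sum over all RefSeq transcripts of the gene in the table.

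The cells were sequenced after 24 h. The authors used evernic acid (EA), a lichen metabolite, and temozolomide (TMZ), the alkylating drug given to glioblastoma patients, and looked for transcripts that respond to the combination. The group of untreated controls has 3 libraries. Each treatment has 1 library, named by its concentrations in µM: EA30 and EA45 (EA alone), TMZ600 (TMZ alone), and the combinations EA35TMZ320, EA20TMZ380 and EA20TMZ580. The table used here thus holds no replicate of any treatment. The study states that its experiments were done in replicates, but how these relate to the libraries is not given in the sources used here. The 3 single-agent libraries and the 3 combination libraries were also compared as classes, but libraries of a class differ in agent or dose and are not replicates of one treatment. The labels do not say whether the 3 controls came from separate cultures, so the spread between them may be technical. The study describes its U-87 cells as resistant to TMZ.

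LKB1 works in a complex with the pseudokinase STRAD and the scaffold protein MO25 (gene CAB39). It phosphorylates and thereby activates AMPK, the kinase that senses a shortage of cellular energy, and a family of AMPK-related kinases that act on cell polarity and transcription. Active AMPK slows lipid and protein synthesis, in part by restraining the growth-promoting complex mTORC1. STK11 is a tumour suppressor gene whose inherited loss causes Peutz-Jeghers syndrome, and AMPK signalling has been studied in glioblastoma as a link between metabolism and growth.

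STK11 (NCBI gene 6794) lies on the plus strand of chromosome 19, at chr19:1205778-1228431 in GRCh38.p14, and spans 22654 bases. RefSeq lists 3 transcripts, and 1 of them, the coding transcript NM_000455.5, was in the table. All 1520 counts of the gene over the 9 libraries lay on it. The closest GENCODE model of this transcript (GRCh38) has 10 exons, a coding sequence of 1299 bases (433 codons, without the stop codon) and a 3′ untranslated region of 862 bases, in which the annotation counts the stop codon. Since the libraries were primed at the 3′ ends of transcripts, the reads are expected in or near the last exon, at chr19:1227593-1228435. A polyadenylation signal AATAAA starts 26 bases before the end of that model, and the model holds 0 runs of 8 or more A at which internal priming could start.

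The last 145 bases of STK11 overlap CBARP, a gene on the opposite strand. The strand setting of the counting is not given in the sources used here, so reads in the overlap cannot be assigned to one of the genes by their position. CBARP, with 4 transcripts in the table, was listed at 0 in all 9 libraries. Of the other genes within 60000 bases, ATP5F1D (a subunit of the mitochondrial ATP synthase) had 14 to 48 counts per library and FAM174C had 196 to 576. CIRBP-AS1 had 0 to 9 counts, and the remaining neighbours in the table were listed at 0.

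The promoter is shown because STK11 transcript levels are the measurement followed here. The RefSeq window of 250 bases before and 50 bases after the transcription start (GRCh38.p14, chr19:1205528-1205827, plus strand) reads, 5′ to 3′, with capitals for each CCAAT:
STK11 promoter: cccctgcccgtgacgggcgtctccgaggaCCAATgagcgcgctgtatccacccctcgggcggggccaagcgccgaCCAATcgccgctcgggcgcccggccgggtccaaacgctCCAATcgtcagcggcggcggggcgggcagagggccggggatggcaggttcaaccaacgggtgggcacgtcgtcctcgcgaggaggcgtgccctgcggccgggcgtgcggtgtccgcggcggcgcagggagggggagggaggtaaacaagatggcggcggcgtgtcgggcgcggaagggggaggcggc
CCAAT was found 3 times, 221, 175 and 137 bases before the start, always on the plus strand. GGGCGG, the core of a GC box, was found 2 times, 194 and 118 bases before the start. Both strands were searched, and no match overlapped another. Of 35116 RefSeq promoters of the same length, 34.6% held CCAAT and 3.26% held it at least 3 times. GGGCGG was held by 45.0% of them, and by 26.7% at least 2 times. The STK11 window is 75.3% G and C, against a median of 58.7% over all promoters, and it holds 44 CpG dinucleotides against a median of 14. These matches describe the sequence and are not measured binding sites.

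The table held few counts per library, and the number of reads sequenced was not seen. The controls held 259753 to 285248 counts, the single-agent libraries 304336 to 490235 and the combination libraries 213566 to 367291. A large part of these counts lay on the mitochondrial genome, and this part was larger in each treated library than in the controls. It was 48.7% ± 0.340 (SD, n = 3) in the controls, 54.9% ± 3.25 (n = 3) with single agents and 57.0% ± 1.92 (n = 3) in the combinations. The SD of a treated class spans different agents or doses and is not a spread between replicates. Counts on nuclear genes ranged from 96265 in a combination library to 205133 in a single-agent library. ACTB, GAPDH and 14 more of 18 genes needed in all cells had no counts, so a gene without counts here was not taken to be unexpressed.

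The cell type could be checked only in part. Of 12 glioblastoma and glial markers, 10 were listed at 0, among them GFAP, VIM, SOX2 and EGFR, and TNC had 2 counts in all. The intermediate filament gene NES, a marker of neural precursors and glioma cells, was the one marker that could be tested. Its level in CPM (counts per library after TMM scaling, as if all libraries held the same total) was 519, 601 and 558 in the controls and at most 157 in the 6 treated libraries, with the lowest value in EA45. All treated libraries were thus below the controls in this marker, which was the case for 10.7% of all features. Of 13 markers of other brain or blood cells, 12 were listed at 0 and VWF had 1 count. The part of the lower NES in the STK11 values was not tested. In bulk RNA, fewer cells expressing a gene and less of its RNA per cell cannot be told apart.

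STK11 was among the better-covered nuclear genes of the table. Its mean was 169 counts per library, which ranks 141st among nuclear features. Genes such as ACTB and GAPDH had no counts here, so this is a place in the table and not a rank of expression. In the controls 203, 169 and 184 reads were counted on it. EA30 had 246 counts, EA45 had 152 and TMZ600 had 205. Among the combinations, EA35TMZ320 had 76 counts, EA20TMZ380 had 106 and EA20TMZ580 had 179. The 2 lowest counts of the series were thus those of 2 combinations, before any correction for depth. EA35TMZ320 was also the library with the fewest counts, 213566 in total and 96265 on nuclear genes. EA20TMZ380 had 367291 in total, more than any control.

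In CPM the controls stood at 693, 601 and 590, with a mean of 628 ± 56.6 (SD, n = 3). EA30 stood at 559 CPM with a 95% counting interval of 491 to 633 (exact Poisson). EA45 stood at 507 CPM (429 to 594) and TMZ600 at 596 CPM (518 to 684). TMZ600 lay inside the range of the controls, and both libraries of EA alone lay below the lowest control. These intervals cover counting error only. They leave out the spread between libraries of one treatment, which could not be measured.

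The combinations did not behave alike. EA35TMZ320 stood at 364 CPM (287 to 456), which is 58.0% of the control mean. EA20TMZ380 had the lowest level of the series, with 323 CPM (264 to 391) or 51.4% of the control mean. EA20TMZ580 stood at 569 CPM (489 to 659), or 90.6% of the control mean, and lay among the single agents. It was above EA30 and EA45 and below TMZ600. The description that combinations have less STK11 than single agents therefore held for EA35TMZ320 and EA20TMZ380 and not for EA20TMZ580.

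**Figure D1:**
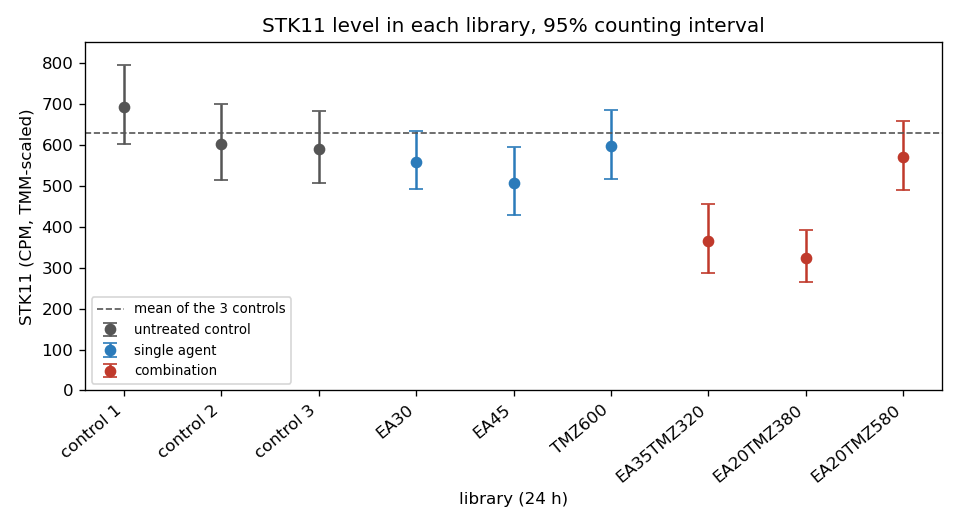
STK11 level in CPM (vertical axis, TMM-scaled) in each of the 9 libraries (horizontal axis); points are single libraries, bars are 95% counting intervals and the dashed line is the mean of the 3 controls. EA35TMZ320 and EA20TMZ380 lie at 364 and 323 CPM, whereas EA20TMZ580 lies at 569 CPM, close to the single agents.

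Ordered from high to low, the libraries were control 1, control 2, TMZ600, control 3, EA20TMZ580, EA30, EA45, EA35TMZ320 and EA20TMZ380. Counting intervals of neighbours in this order overlapped at every step. The widest step lay between EA45 and EA35TMZ320, from 80.7% to 58.0% of the control mean. Apart from that step and the step from control 1 to control 2, each was smaller than the SD of the controls.

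Several pairs of libraries share an agent, and their STK11 levels were set against each other by ratio, with an exact conditional interval of 95% that covers counting error only. EA20TMZ380 and EA20TMZ580 have the same concentration of EA and differ in TMZ. The ratio of EA20TMZ380 to EA20TMZ580 was 0.568 (0.442 to 0.726), so the combination with less TMZ had the lower level. It was 0.533 with scaling to total counts and 0.516 with scaling to nuclear counts. The ratio of EA20TMZ580 to TMZ600, whose TMZ concentrations are close, was 0.954 (0.776 to 1.17) with TMM but 0.803 (0.654 to 0.987) with total counts. The concentrations of EA20TMZ580 and TMZ600 are not the same, and neither are those of the pairs that follow.

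The EA concentration of EA35TMZ320 lies between those of EA30 and EA45. Its ratio to EA30 was 0.652 (0.498 to 0.847). Its ratio to EA45 was 0.719 (0.539 to 0.953), and the upper bound passed 1 with total counts (0.571 to 1.01) and with nuclear counts (0.573 to 1.01). EA45 and EA30 had a ratio of 0.907 (0.736 to 1.11), and EA35TMZ320 and EA20TMZ380 a ratio of 1.13 (0.829 to 1.53). No difference within either of these last pairs was detectable at these counts. With 1 library per treatment, none of these ratios has a replicate check, and each compares libraries rather than treatments.

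The STK11 level relative to the controls depended on the scaling. With total counts, which include mitochondrial reads, STK11 in EA30 was 73.4% of the control mean, in EA45 68.3% and in EA20TMZ580 79.2%. With counts of nuclear genes alone and no TMM factor (an alternative chosen after seeing the data), EA30 stood at 90.0%, EA45 at 77.4% and EA20TMZ580 at 98.4%. The totals of these 2 scalings differ only in the mitochondrial reads. EA35TMZ320 and EA20TMZ380 were lowest under each of 5 scalings. EA35TMZ320 ranged from 52.1% (total counts) to 61.7% (nuclear counts with TMM), and EA20TMZ380 from 42.2% to 54.9% under the same scalings. TMZ600 stood at 105% of the control mean with nuclear counts and at or below 98.6% under the other scalings.

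**Figure D2:**
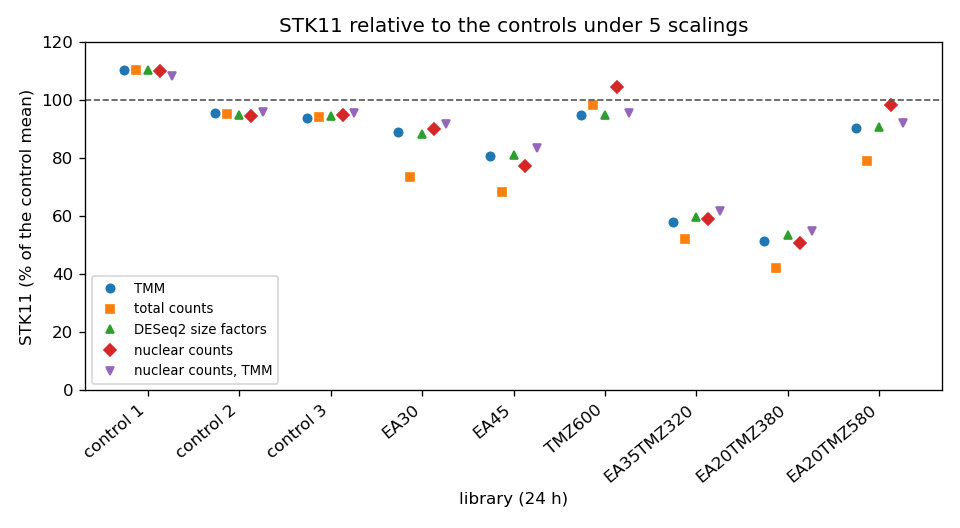
STK11 in each library (horizontal axis) as a percent of the mean of the 3 controls (vertical axis, dashed line at 100) under 5 scalings, marked by symbol and colour. EA35TMZ320 (52.1 to 61.7%) and EA20TMZ380 (42.2 to 54.9%) lie below all other libraries under each scaling, whereas EA20TMZ580 moves between 79.2% and 98.4%.

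As a class, the combinations had 419 ± 132 CPM of STK11 (SD, n = 3) and the single agents 554 ± 45.1 CPM (n = 3). The log2 difference of combinations minus single agents was -0.40 (SE 0.26), which is 75.7% of the single-agent level. The wide spread of the combinations came from EA20TMZ580, without which the difference was -0.65. Without EA20TMZ380 it was -0.24. The classes overlapped, since 2 of 3 combinations lay below all single agents and EA20TMZ580 did not. Over all features, 5.09% had all combinations below all single agents, and STK11 was not one of them. In this contrast 0% of features passed the edgeR test at an adjusted p of 0.05 (0 of 609), 31 had an unadjusted p under 0.05, the Wald test of DESeq2 called 4 and limma-voom called 1. STK11 was at the 19.7th percentile of all log2 differences in this contrast, counted from the lowest, and the median of all features was -0.04. Nothing is read from this place, since the gene was chosen for its values in this contrast.

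Combinations minus controls gave a log2 difference of -0.58 (SE 0.26), or 66.8% of the control level. All 3 combinations lay below all 3 controls. This was so for 20.5% of all features, and 8.37% were called by edgeR in either direction. Since STK11 was chosen from these libraries, nothing is read from its place among them. Under scaling to nuclear counts without TMM, EA20TMZ580 lay within the controls and 2 of 3 combinations remained below. Single agents minus controls gave -0.18 (SE 0.26), or 88.2% of the control level. Here TMZ600 overlapped the controls, whereas 14.8% of features had all single agents below all controls and 1.97% were called in either direction. These contrasts share the control or the combination libraries and are not independent of each other.

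In the fit with 1 coefficient per treatment, the spread came from the 3 controls alone. STK11 differed from the controls by a log2 value of -0.17 (SE 0.20) for EA30, -0.31 (SE 0.21) for EA45 and -0.07 (SE 0.20) for TMZ600. The differences were -0.78 (SE 0.24) for EA35TMZ320, -0.96 (SE 0.23) for EA20TMZ380 and -0.14 (SE 0.21) for EA20TMZ580. Without control 1, which had the highest level, the differences were -0.099 for EA30, -0.0016 for TMZ600 and -0.070 for EA20TMZ580. Without control 3 the difference for TMZ600 was -0.12. The SE depended on the fit. With DESeq2 the difference was -0.74 (SE 0.40) for EA35TMZ320 and -0.90 (SE 0.39) for EA20TMZ380. In EA35TMZ320 43% of all features were called and in EA20TMZ380 26.1%, so a difference from the controls was common in both libraries. The median of all features was -0.13 in EA35TMZ320 and -0.12 in EA20TMZ380. The percentile of STK11 among all features was 30.5 in EA35TMZ320 and 18.2 in EA20TMZ380, and nothing is read from these places, since the gene was chosen for its low values there. The mitochondrial share was 54.9% in EA35TMZ320, 57.4% in EA20TMZ380, 58.7% in EA20TMZ580, 58.2% in EA30, 54.8% in EA45 and 51.7% in TMZ600. Its part in the STK11 values was not tested.

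**Figure D3:**
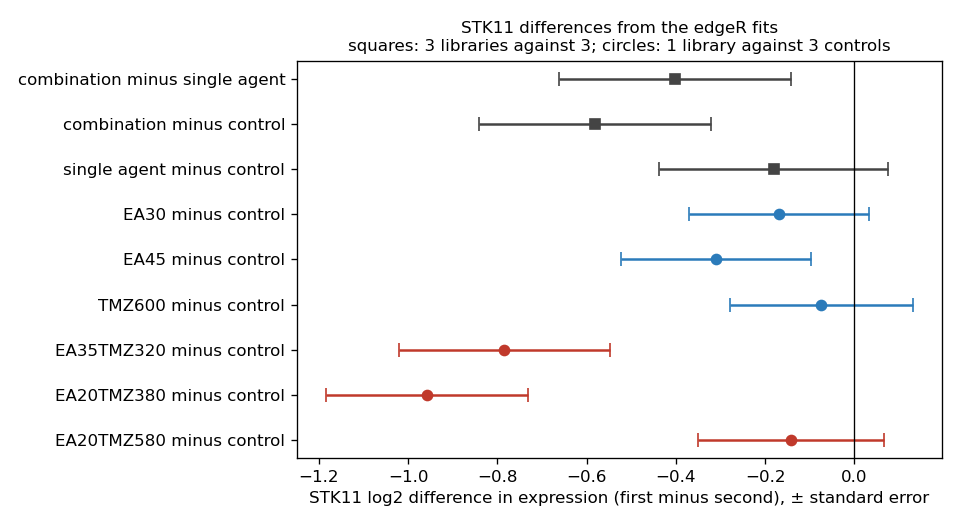
Log2 differences of STK11 (horizontal axis) for 3 class contrasts (squares, 3 libraries against 3) and for each treatment against the 3 controls (circles, 1 library against 3), with bars of 1 SE. EA35TMZ320 (-0.78) and EA20TMZ380 (-0.96) lie farthest below 0 and EA20TMZ580 (-0.14) lies near it.

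All 5 libraries that contain EA lay below every control under TMM, and TMZ600 lay within the controls. This was the case for 14.4% of all features when only the 5 EA libraries were asked to lie below the controls, 88 of 609. With nuclear counts and no TMM factor, 4 of the 5 EA libraries remained below. The order within the EA libraries did not follow the EA concentration, because the library with the lowest STK11 has 20 µM and EA20TMZ580, with the same 20 µM, has the highest level of the 5.

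**Figure D4:**
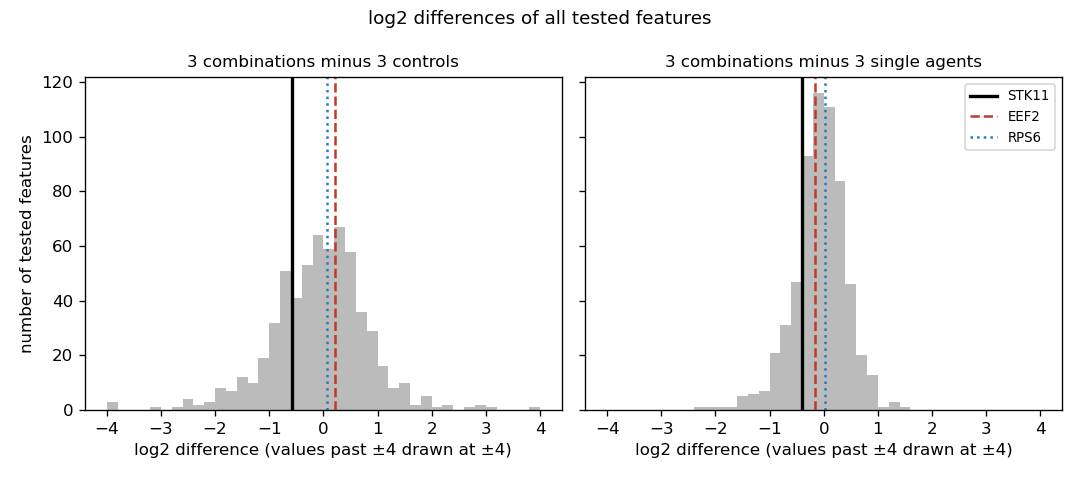
Number of tested features (vertical axis) by log2 difference (horizontal axis) for combinations minus controls (left) and combinations minus single agents (right), with lines for STK11, EEF2 and RPS6. STK11 lies at -0.58 on the left and -0.40 on the right, at percentiles 26.1 and 19.7 of the features. Nothing is read from these places, since the gene was chosen from these libraries.

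The partners and substrates of LKB1 could hardly be followed. Of 97 other genes in lists of the LKB1 complex, AMPK and mTORC1, 84 were listed at 0 in all libraries, 11 had counts below the filter and 2 could be tested. A 0 allows up to 3 counts per library as far as counting error goes. For the complex itself, STRADA, STRADB, CAB39 and CAB39L were listed at 0, so no level of a binding partner can be set beside that of LKB1. STK11IP, which encodes a protein that binds LKB1, had 4 counts in all.

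All 7 AMPK subunit genes were listed at 0. Of 15 genes for other AMPK activators and regulators, CAMKK1, a calcium-dependent kinase that acts on AMPK, had 4 counts and 14 were listed at 0. Among the 12 AMPK-related kinases, NUAK1 had 2 counts, SIK2 had 1 and 10 were listed at 0. Of the kinases that LKB1 activates, none was therefore measured well enough to compare.

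Among 32 genes for targets of these kinases, 25 were listed at 0, 6 were below the filter and 1, EEF2, was tested. ACACA, the acetyl-CoA carboxylase that AMPK switches off by phosphorylation, came closest to the filter with 77 counts. Controls had 9, 15 and 11 of these, the single agents EA30, EA45 and TMZ600 had 14, 6 and 9, and the combinations EA35TMZ320, EA20TMZ380 and EA20TMZ580 had 4, 6 and 3. These counts are too few to compare libraries. PFKFB2, a regulator of glycolysis, had 7 counts, and TBC1D1, ULK2, PPARGC1A and HDAC4 had 1 to 4 counts each. Of 20 genes of the mTORC1 axis, 18 were listed at 0, TBC1D7 (a subunit of the TSC complex that restrains mTORC1) had 5 counts and RPS6 was tested.

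EEF2 encodes the elongation factor whose kinase is activated downstream of AMPK and held back by mTORC1. Its level was 25049, 24476 and 24001 CPM in the controls, with a mean of 24509 ± 525 (SD, n = 3). It was 34351 CPM in EA30, 39838 CPM in EA45 and 20771 CPM in TMZ600. It was 28574 CPM in EA35TMZ320, 30317 CPM in EA20TMZ380 and 26109 CPM in EA20TMZ580. Under TMM all 5 EA libraries lay above the controls, as they did for 11.3% of all features, and TMZ600 lay below. With total counts this did not hold, since the log2 difference of EA20TMZ580 was -0.10. The p-values that follow set 1 library against the spread of the 3 controls, which may be technical, so they compare libraries and not treatments. EEF2 was higher in the EA45 library by a log2 value of 0.70 (SE 0.10, edgeR adjusted p = 9.59e-08), and this passed under all 11 alternatives run for it. It was also called higher in EA30 by 0.49 (SE 0.10), a call lost with total counts, where the difference was 0.21. In EA20TMZ380 it was called higher by 0.31 (SE 0.10), and this call was lost in 5 alternatives. The difference fell to 0.022 with total counts, whereas it was 0.31 without control 2 and 0.29 without control 3. The differences were 0.22 in EA35TMZ320 (edgeR adjusted p = 0.0777), 0.09 in EA20TMZ580 (0.590) and -0.24 in TMZ600 (0.165). Of these, EA35TMZ320 passed under 4 alternatives, with edgeR adjusted p-values of 0.0328 (DESeq2's size factors), 4.51e-05 (mitochondrial genes left out), 0.000397 (nuclear counts, no TMM) and 0.00951 (without control 1). EA20TMZ580 passed with nuclear counts (0.21, edgeR adjusted p = 0.00712), although its sign turned with total counts, and TMZ600 passed as lower with mitochondrial genes left out (-0.23, edgeR adjusted p = 0.00559). With all features, 17.6% were called in EA30, 39.1% in EA45, 24.6% in EA20TMZ580 and 9.85% in TMZ600.

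RPS6 encodes the ribosomal protein that S6 kinases phosphorylate downstream of mTORC1. It stood at 35837, 36557 and 36388 CPM in the controls, with a mean of 36260 ± 377 (SD, n = 3). In the treated libraries it ranged from 32425 CPM in EA20TMZ580 to 42353 CPM in EA35TMZ320. The log2 differences lay between -0.16 and 0.22 and RPS6 passed the test in 0 of 9 comparisons. The lowest edgeR adjusted p was that of EA35TMZ320 (0.0610). Some alternatives did call it. With mitochondrial genes left out it passed as higher in EA35TMZ320 (0.31, edgeR adjusted p = 1.86e-05), EA45 (0.25, 0.000298) and EA20TMZ380 (0.21, 0.00281) and as lower in EA20TMZ580 (-0.14, 0.0445). With nuclear counts and no TMM it passed in EA35TMZ320 (0.25, edgeR adjusted p = 7.11e-05) and EA45 (0.14, 0.0325). Without control 1 it passed as higher in EA35TMZ320 (0.23) and in EA45 (0.19), and with DESeq2's size factors it passed in EA35TMZ320 (0.27). With total counts it passed as lower in EA20TMZ580 (-0.36) and EA30 (-0.28), and its sign turned in EA45 and EA20TMZ380, so no direction is given for RPS6. These values are transcript levels and say nothing of the phosphorylation of either protein.

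The list genes that could be tested thus gave 1 call of 2 in EA30, EA45 and EA20TMZ380, each time EEF2 and each time higher, and 0 of 2 in the other 6 comparisons. The share of features called higher was 8.87% in EA30, 19.9% in EA45 and 11.8% in EA20TMZ380. STK11 and EEF2 did not have the same order of libraries. In EA45, where EEF2 was highest, STK11 was at 80.7% of the controls, and in EA20TMZ380, where STK11 was lowest, EEF2 was between its levels in EA35TMZ320 and EA30.

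The genes with the STK11 pattern were ranked by Pearson's r of log2(CPM + 1) over the 9 libraries, given as a description because the libraries share controls, depth and scaling. Over the 608 other features the median r was 0.0927, and 4 features had an r above 0.9. The 5 named genes with the highest r were PELI2, LHX3, EXOC3-AS1, PDZK1IP1 and CD3G. PELI2 (r = 0.97), a ubiquitin ligase of innate immune signalling, had 2731, 2257 and 2010 CPM in the controls, 1146 CPM in EA35TMZ320, 869 CPM in EA20TMZ380 and 1812 CPM in EA20TMZ580. Its level in the single agents was 1905 CPM in EA30, 1540 CPM in EA45 and 1702 CPM in TMZ600. All treated libraries of PELI2 lay below the controls, as for 10.7% of all features.

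LHX3 (r = 0.942) is a LIM homeobox transcription factor known from pituitary development. It had 324, 281 and 333 CPM in the controls, 125 CPM in EA35TMZ320, 137 CPM in EA20TMZ380 and 331 CPM in EA20TMZ580, which lay within the controls. EXOC3-AS1 (r = 0.932) is annotated antisense to EXOC3, so its reads cannot be told apart from those of its partner without strand. PDZK1IP1 (r = 0.926), a small membrane protein, had 64.9, 85.3 and 106 CPM in the controls and 14.4 CPM in EA35TMZ320 and 12.2 CPM in EA20TMZ380. The means of EXOC3-AS1 and PDZK1IP1 were only 26.7 and 19.6 counts per library. Their values in EA35TMZ320 and EA20TMZ380, and so their r, rest on few reads. CD3G (r = 0.896) encodes a chain of the T cell receptor complex. It had 287, 291 and 196 CPM in the controls, 134 CPM in EA35TMZ320 and 122 CPM in EA20TMZ380. CD3G in TMZ600, at 346 CPM, lay above every control, whereas EA30 (288), EA45 (223) and EA20TMZ580 (251) lay within the controls. In all 5 genes EA35TMZ320 and EA20TMZ380 were the 2 lowest libraries, which is part of the pattern they were chosen for. The ranking depended on the measure, since 0 of these 5 genes were among the top 5 by Spearman's rho.

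**Figure D5:**
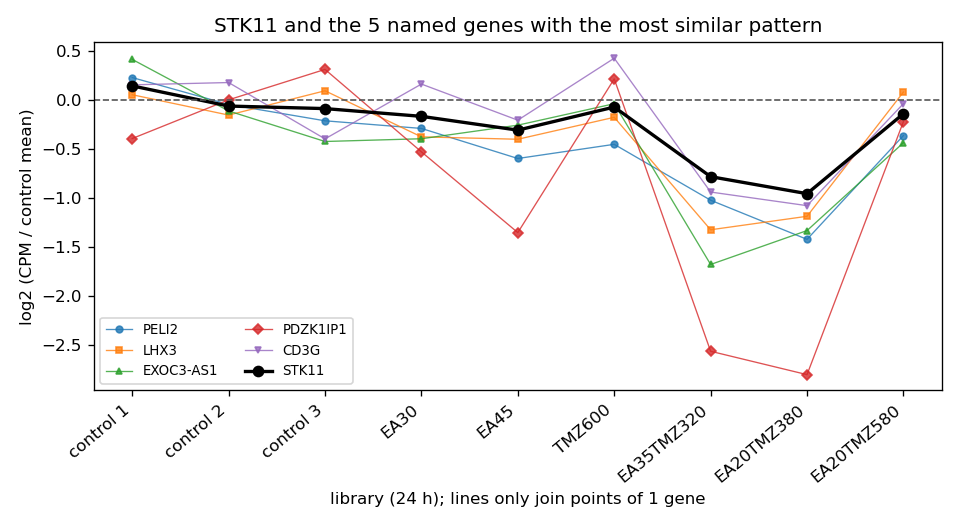
Log2 ratio of each library's CPM to the control mean (vertical axis) for STK11 and the 5 named genes with the highest Pearson's r (lines join points of one gene) over the 9 libraries (horizontal axis). In each of the 6 genes EA35TMZ320 and EA20TMZ380 are the lowest libraries, with STK11 at 364 and 323 CPM.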

How the data were processed

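The authors made QuantSeq libraries from the 3′ ends of U-87 transcripts and sequenced them. The authors deposited 1 table of raw read counts per RefSeq transcript for all 9 libraries, and no column was left unused. The submitters' processing notes name HISAT2, HTSeq and hg38; versions, strand setting and treatment of multiply mapped reads are not given in the sources used here. Of 159067 transcripts, 57755 were matched to gene symbols of RefSeq GRCh38.p14 by accession and version and 56301 without version; 45011, with 4.63% of counts, had no match, were kept under their own identifiers and could hold further transcripts of a gene. Counts were summed per gene symbol.

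edgeR 4.0.16 (R 4.3.3) was run with TMM and its quasi-likelihood F-test on 609 features with a mean of at least 10 counts, with Benjamini-Hochberg adjustment over all of them and a threshold of 0.05. One fit had a coefficient per class (control, single agent, combination), another a coefficient per condition. CPM were scaled by TMM. The fits were also run on counts simulated with known changes. These counts were drawn from the fits' own estimates of the spread, so they cannot test those estimates. Alternatives were DESeq2's size factors, the Wald test of DESeq2 1.42.0, limma-voom (limma 3.58.1), other filters, total counts, mitochondrial genes left out, transcripts not summed, and libraries left out in turn. Scaling to nuclear counts without TMM, and the alternatives for EEF2 and RPS6, were added after seeing the data.

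STK11 and the gene lists were chosen with earlier results of these data known. Named were STK11, list genes with a mean of at least 10 counts (others by their range), and the 5 features with a symbol and the highest Pearson's r with STK11. Individual genes with fewer counts, the genomic neighbours and the markers were named after their values were seen. Promoters came from RefSeq (GRCh38.p14), the exon model from GENCODE. Intervals were computed with scipy 1.17.1 and plots drawn with matplotlib 3.10.9.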

Additional observations from a re-analysis of the deposited data

How the results depend on the processing

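The STK11 values rest on 76 to 246 counts per library and 1 library per treatment. All list genes but EEF2 and RPS6 were below the filter or without counts, and the cause of the zeros was not tested. No paired analysis was possible because each treatment has 1 library and the numbers of the controls pair nothing.

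STK11 log2 differences kept their direction in all alternatives except TMZ600 with nuclear counts and no TMM (0.064). Combinations minus single agents ranged from -0.47 to -0.37, and from -0.65 (without EA20TMZ580) to -0.24 (without EA20TMZ380) with 1 library left out. The same ranges with a library left out were -0.80 (without EA20TMZ580) to -0.42 for combinations minus controls and -0.24 to -0.11 (without control 1) for single agents minus controls. With total counts the differences moved to -0.79 for combinations and -0.32 for single agents minus controls, -0.45 (EA30), -0.55 (EA45), -0.94 (EA35TMZ320), -1.24 (EA20TMZ380) and -0.34 (EA20TMZ580). The cause was not tested.

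The Wald test of DESeq2 called 93 features for combinations minus controls, 4 for combinations minus single agents, 24 for single agents minus controls, and against the controls 20 for TMZ600, 41 for EA30, 113 for EA45, 150 for EA35TMZ320, 57 for EA20TMZ380 and 53 for EA20TMZ580. Without a filter 3 were called for combinations minus single agents, 30 for single agents minus controls, 101 in EA20TMZ380 and 94 in EA20TMZ580. A mean of at least 50 counts gave 1 and limma-voom 1 for combinations minus single agents. The count for combinations minus single agents was 4 without TMZ600. Combinations minus controls had 15 to 18 without a control, 33 without EA20TMZ380 and 26 without EA35TMZ320. Single agents minus controls had 1 to 7 without a control, 5 without EA45, 20 without EA35TMZ320 and 47 without TMZ600. Without control 2, 99 were called in EA20TMZ580 and 33 in TMZ600. With 1 library left out the ranges were 0 to 4 for combinations minus single agents, 15 to 63 for combinations minus controls, 1 to 47 for single agents minus controls, 33 to 78 in TMZ600, 99 to 164 in EA20TMZ580, 83 to 115 in EA30, 206 to 241 in EA45, 224 to 270 in EA35TMZ320 and 112 to 158 in EA20TMZ380. By Spearman's rho 0 of the 5 genes most like STK11 were kept, and with DESeq2's size factors 2 list genes were called in EA35TMZ320.

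EEF2 turned to -0.10 in EA20TMZ580 with total counts. RPS6, which was not called, turned to -0.17 in EA20TMZ380 and -0.040 in EA45 with total counts, to 0.045 in TMZ600 with nuclear counts and no TMM, and in EA30 to 0.030 (mean of at least 50), 0.044 (no filter), 0.041 (mitochondrial genes left out) and 0.014 (nuclear counts, no TMM). The cause was not tested.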
